A study of Arabidopsis thaliana with 21 samples.

Results

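The gene group described here was the auxin synthesis, transport and response set of Arabidopsis thaliana, taken by family membership from the table of read counts per gene. It held 49 of the 33655 rows of that table, with 25 Aux/IAA genes, 6 synthesis genes (*TAA1* and 5 YUCCA genes), 5 GH3 genes, 6 carriers (4 PIN genes, *AUX1* and *LAX3*), 5 ARF genes and the receptor genes *TIR1* and *AFB2*. Membership used no measured value of a gene, but the set was put together with earlier results of these data known, and it leaves out SAUR genes and 38 genes of the same families, which are described last. Every member was tested in both statistical fits.

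Auxin is made from tryptophan in a short pathway in which TAA1 forms indole-3-pyruvic acid and the YUCCA monooxygenases turn it into auxin. PIN proteins carry auxin out of cells, AUX1 and LAX3 carry it in, and the GH3 enzymes join it to amino acids. Inside the nucleus auxin brings the TIR1/AFB receptors and the Aux/IAA repressors together, the repressors are degraded, and the ARF transcription factors they held are released to activate genes that include many Aux/IAA and GH3 genes themselves. In seedlings growing in the dark this pathway drives elongation of the hypocotyl, and the PIF transcription factors, which phytochromes remove in the light, activate several of its genes. COP1 and the SPA proteins form a ubiquitin ligase that degrades light-signalling transcription factors in darkness.

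RNA was sequenced from whole 3-day-old dark-grown seedlings in 7 groups of 3 libraries. Far-red light at 10 µmol per square metre and second was given to all groups early, after germination had been induced, to inactivate phytochrome. Red light was then given for 1 h, at 8 µmol in the same unit per the labels (the methods give a lower rate), to *spaQ*, the spa1 spa2 spa3 spa4 quadruple mutant, to *cop1-4*, a weak allele of *COP1*, and to Col-0, the wild type of both. The 4 other groups were *phyB-GFP ΔC* in red light or in darkness and *phyB-GFP FL* in red light or in darkness, where FL is full-length phytochrome B fused to GFP and ΔC lacks the C-terminal end that binds SPA1. Both transgenes were carried in a phyA phyB double mutant, so the FL controls also lacked native phytochromes A and B, and the sources used here do not say which transgenic line was sequenced. Dark libraries of *spaQ*, *cop1-4* and Col-0 were not analysed here, so the mutant comparisons give levels after red light and not responses to it.

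Each library held 15678019 to 29523833 counts, and 3 counts, the limit used for a low value, equalled 0.102 to 0.191 CPM, the count scaled to a library of fixed size. The targeted genes went with the labels for *SPA1* (38.5 to 42.3 CPM in *spaQ*, 303 to 316 CPM in Col-0), *SPA3*, *COP1* in *cop1-4* (36.6 to 39.4 CPM, against 66.1 to 70.4 CPM in Col-0) and *PHYB* (928 to 1560 CPM in the phyB-GFP lines). *SPA2* and *SPA4* transcripts were at 46.5 to 51.9 and 63.1 to 68 CPM in *spaQ*, against 43.1 to 48.9 and 50.8 to 53.5 CPM in Col-0, so read counts did not mark these mutations. In red *PHYB* was at 928 to 1390 CPM in FL and 1250 to 1370 CPM in ΔC, so its level did not tell the lines apart. Col-0, scaled in the other fit, was at 129 to 137 CPM. *PHYA* in red was at 32.3 to 37.3 CPM in FL, 42.7 to 48 CPM in ΔC and 605 to 619 CPM in Col-0. *phyB-GFP FL* red replicate 3 stood apart from its 2 replicates, with a chi-square per gene of 18.4 and 29.3 against them and 4.35 between them. Smaller gaps were found for *spaQ* replicate 1 (6.37 and 5.48, beside 2.48) and for ΔC dark replicate 3 (9.55 and 9.3, beside 3.73). Another was found for ΔC red replicate 1 (6.52 and 8.85, beside 3.44). Seed reserve genes differed within groups and between them, root markers differed less, and both are given below beside the results. The labels do not say that replicates came from separate cultures, so p-values measure the spread between these libraries, and in whole seedlings fewer cells of a type cannot be told apart from less RNA per cell.

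After 1 h of red light most of the auxin genes were lower in *spaQ* and in *cop1-4* than in Col-0. In *spaQ* 24 members were called lower and 1 higher, where a call needed an adjusted p under 0.05 in edgeR's quasi-likelihood test and a difference of more than 2-fold, that is 1 on the log2 scale. Over all 20396 genes tested the same rule called 32.5%, with 17.5% lower and 15.0% higher, so 51% of the members stood against a wide background. The median log2 fold change was -0.99 over the members and 0.01 over all genes. In *cop1-4* 21 members were called lower and none higher, 42.9% against a background of 23.8% (13.1% lower and 10.7% higher), with medians of -0.68 for members and 0.00 for all genes. Both mutants were set against the same 3 Col-0 libraries, so their values are given side by side and are not 2 independent results. Without the fold limit 39 members were lower and 5 higher in *spaQ*, and 39 were lower and 4 higher in *cop1-4*. The higher counts include *GH3.6* in both mutants and *TIR1* in *cop1-4*, given no direction below, and *ARF8* in *spaQ* at 0.11. Scaled by library totals alone, positive values numbered 4 in *spaQ* and 3 in *cop1-4*, against 6 and 7 with the scaling used here. Passing without the limit was common, at 16190 of the 20396 genes in *spaQ* (50.6% of them higher) and 14870 in *cop1-4* (49.9% of them higher).

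**Figure D1:**
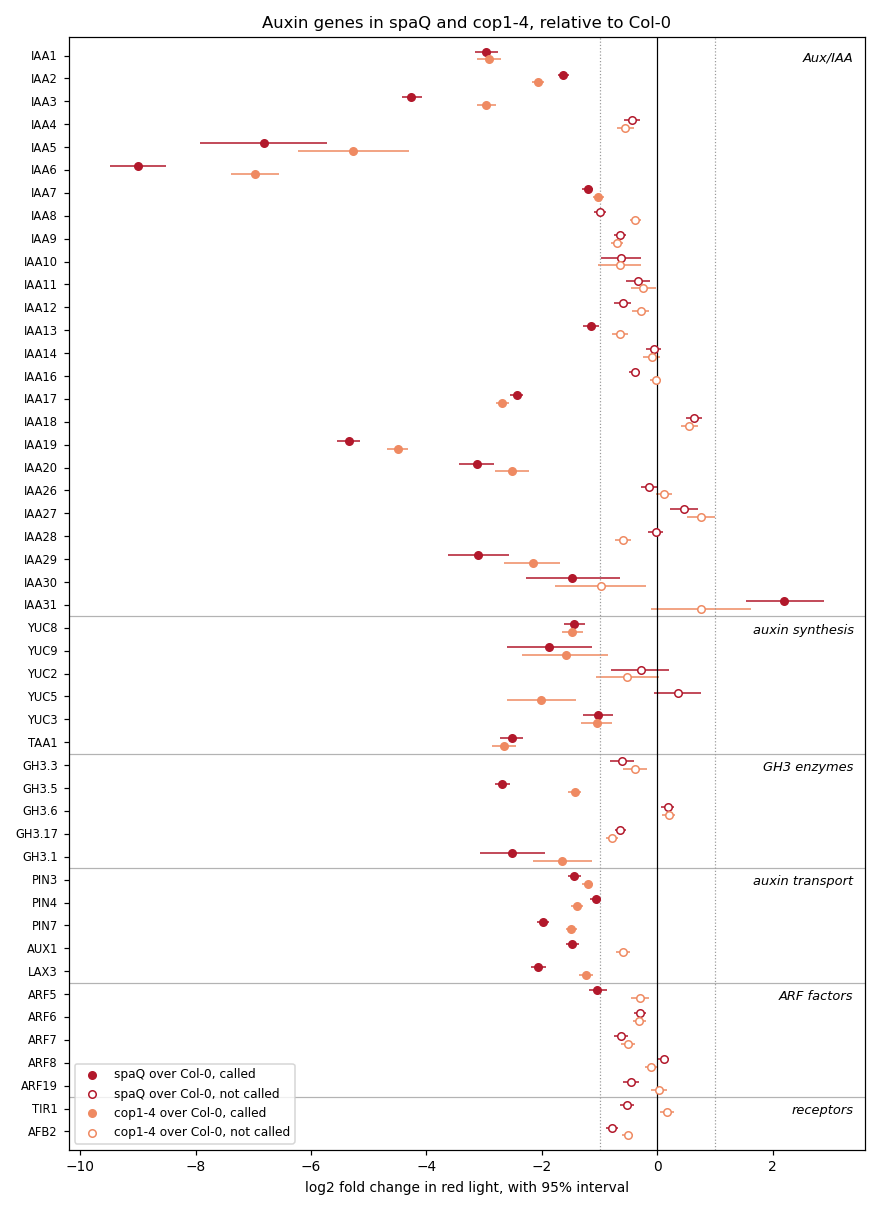
Log2 fold change of the members after 1 h of red light, *spaQ* over Col-0 and *cop1-4* over Col-0, ordered by role, with bars for the 95% interval. Most points lie left of 0, those of *IAA5* and *IAA6* depend on the prior count, and *IAA31* in *spaQ* is the only called point on the right.

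Markers of other tissues moved as well. The summed level of 9 seed reserve genes was 1080 to 1980 CPM in *spaQ*, 2.44 to 135 CPM in *cop1-4* and 212 to 409 CPM in Col-0. Of these 9, 4 were called higher and 2 lower in *spaQ*, with a median log2 fold change of 0.11, and all 9 were called lower in *cop1-4*. For 9 root genes the sums were 204 to 231 CPM in *spaQ*, 185 to 225 CPM in *cop1-4* and 322 to 337 CPM in Col-0, although 4 of them were called higher and 1 lower in *spaQ* and 3 higher and 1 lower in *cop1-4*. The 8 genes of green cotyledons summed to 34500 to 36500 CPM in *spaQ*, 42000 to 47100 CPM in *cop1-4* and 9980 to 10900 CPM in Col-0, with 1 of them at or below 3 counts. Their part in the auxin gene results was not tested. Scaled by library totals alone, 32.7% of the calls over all genes were on the higher side in *spaQ*, against 46.1% with the scaling used here, and 32.3% in *cop1-4*, against 44.8%. The members called lower then numbered 27 in *spaQ* and 22 in *cop1-4*.

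The Aux/IAA repressors held the widest differences. In *spaQ* 12 of the 25 were called lower and 1 higher, and in *cop1-4* 10 were called lower. Leaving aside *IAA5* and *IAA6*, which had almost no reads in the mutants, the log2 fold changes of these ran down to -5.35 in *spaQ* and -4.50 in *cop1-4*, both for *IAA19*. Summed over the family, the level was 1237 to 1338 CPM in *spaQ*, 1379 to 1430 CPM in *cop1-4* and 2566 to 2683 CPM in Col-0.

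*IAA19* (AT3G15540), an auxin-induced repressor whose gene also responds to PIFs, was at 1.83, 1.97 and 2.23 CPM in the 3 *spaQ* libraries and 3.197, 3.39 and 4.24 CPM in the 3 *cop1-4* libraries, against 81.7, 76.4 and 88.0 CPM in Col-0. No mutant library came near the Col-0 libraries. The difference was -5.35 ± 0.0958 (SE, adjusted p = 4.08e-25) in *spaQ* and -4.50 ± 0.0902 (SE, adjusted p = 6.94e-24) in *cop1-4*.

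*IAA3* (SHY2, AT1G04240), a repressor known for its part in root growth and in light responses, was at 4.14, 4.33 and 4.46 CPM in *spaQ*, 11.2, 8.87 and 11.96 CPM in *cop1-4* and 79.6, 80.5 and 87.3 CPM in Col-0. The 3 groups did not overlap, and *spaQ* was the lowest. Against Col-0 the log2 fold change was -4.26 ± 0.0859 (SE, adjusted p = 4.54e-24) in *spaQ* and -2.96 ± 0.0765 (SE, adjusted p = 1.19e-21) in *cop1-4*. An exon of a gene on the opposite strand overlaps *IAA3*, and the strand setting of the counting is not given in the sources used here. That partner's own log2 fold changes were -0.08 and -0.02.

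*IAA6* and *IAA5* were nearly without reads in both mutants. *IAA6* (AT1G52830), a repressor described in adventitious rooting, had 1, 2 and 0 counts in *spaQ* and 2, 3 and 6 counts in *cop1-4*, against 598, 609 and 783 counts in Col-0, or 25.4, 26.2 and 29.8 CPM. Its level in *spaQ* was 0.173% of that in Col-0, with an exact 95% counting interval of 0.0356 to 0.505%. *IAA5* (AT1G15580) had 0, 0 and 1 counts in *spaQ*, 2, 0 and 1 counts in *cop1-4* and 66, 51 and 61 counts in Col-0. That put *IAA5* at 0.643% of Col-0 in *spaQ* (0.0162 to 3.63%) and at 2.35% in *cop1-4* (0.481 to 6.99%). These intervals cover counting error only, and fitted fold changes for such low counts depend on the prior count and are not given. In edgeR's test the adjusted p was 7.72e-22 and 8.27e-21 for *IAA6* and 1.07e-11 and 1.62e-10 for *IAA5*, in *spaQ* and in *cop1-4* in that order.

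*IAA20* and *IAA29* were also lower in both mutants. *IAA20* (AT2G46990), one of the Aux/IAA proteins without the usual degradation motif, was at 1.02, 1.30 and 1.46 CPM in *spaQ*, 1.88, 2.09 and 1.80 CPM in *cop1-4* and 10.8, 12 and 10.3 CPM in Col-0. *IAA29* (AT4G32280), a gene that PIFs activate, was at 0.401, 0.530 and 0.291 CPM in *spaQ*, 0.752, 0.783 and 0.813 CPM in *cop1-4* and 3.65, 2.80 and 4.11 CPM in Col-0. Every mutant library was below every Col-0 library for both genes. The log2 fold changes were -3.13 ± 0.148 (SE, adjusted p = 2.53e-16) for *IAA20* in *spaQ* and -2.51 ± 0.143 (SE, adjusted p = 1.96e-14) in *cop1-4*. For *IAA29* they were -3.10 ± 0.257 (SE, adjusted p = 3.25e-11) in *spaQ* and -2.16 ± 0.236 (SE, adjusted p = 8.23e-09) in *cop1-4*.

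*IAA1* (AXR5, AT4G14560) and *IAA17* (AXR3, AT1G04250), repressors whose stabilised forms make seedlings resistant to auxin, were lower in both mutants. *IAA1* was at 3.56, 3.56 and 3.06 CPM in *spaQ*, 3.32, 3.495 and 3.66 CPM in *cop1-4* and 24.9, 28.0 and 26.4 CPM in Col-0. *IAA17* had the highest level of the members per kilobase of exon in Col-0, 262 to 284 CPM per kb, a range that overlapped that of *IAA7* (252 to 267 CPM per kb). In *spaQ* *IAA17* was at 46.5 to 52.3 CPM per kb and in *cop1-4* at 40.4 to 43.7 CPM per kb. Its log2 fold change was -2.44 ± 0.0537 (SE, adjusted p = 2.43e-23) in *spaQ* and -2.69 ± 0.0553 (SE, adjusted p = 1.21e-23) in *cop1-4*, and that of *IAA1* was -2.96 ± 0.0975 (SE, adjusted p = 1.06e-19) in *spaQ* and -2.92 ± 0.102 (SE, adjusted p = 5.45e-19) in *cop1-4*.

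*IAA31* (AT3G17600) was the only member called higher in a mutant than in Col-0. It was at 2.05, 2.12 and 0.970 CPM in *spaQ*, 0.627, 0.678 and 0.581 CPM in *cop1-4* and 0.297, 0.387 and 0.418 CPM in Col-0, low throughout, with the third *spaQ* library below the other two. The groups did not overlap, and the log2 fold change was 2.20 ± 0.327 (SE, adjusted p = 1.12e-06) in *spaQ* and 0.76 ± 0.422 (SE, adjusted p = 0.108) in *cop1-4*, where it did not pass. *IAA31* is a relative of *IAA20*, and *IAA30*, the third of that group, was lower in *spaQ* (-1.47) and under the fold limit in *cop1-4* (-0.98).

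Among the other repressors, *IAA2* and *IAA7* (AXR2) were called lower in both mutants, with log2 fold changes of -1.63 and -1.21 in *spaQ* and of -2.07 and -1.02 in *cop1-4*. The *cop1-4* call of *IAA7* lay at the limit and was lost without *cop1-4* replicate 2, at -0.99. *IAA13* was called in *spaQ* (-1.15) and was at -0.64 in *cop1-4*. *IAA14* (SLR), the repressor that controls lateral root formation, was at -0.06 in *spaQ* (adjusted p = 0.375) and -0.10 in *cop1-4* (adjusted p = 0.186) and passed in neither. *IAA18* and *IAA27* passed the adjusted p in the upward direction under the fold limit, at 0.64 and 0.47 in *spaQ* and 0.55 and 0.75 in *cop1-4*. Exons of *IAA27* overlap those of a gene on the opposite strand that was at 1.01 in *spaQ* and 0.80 in *cop1-4*.

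**Figure D2:**
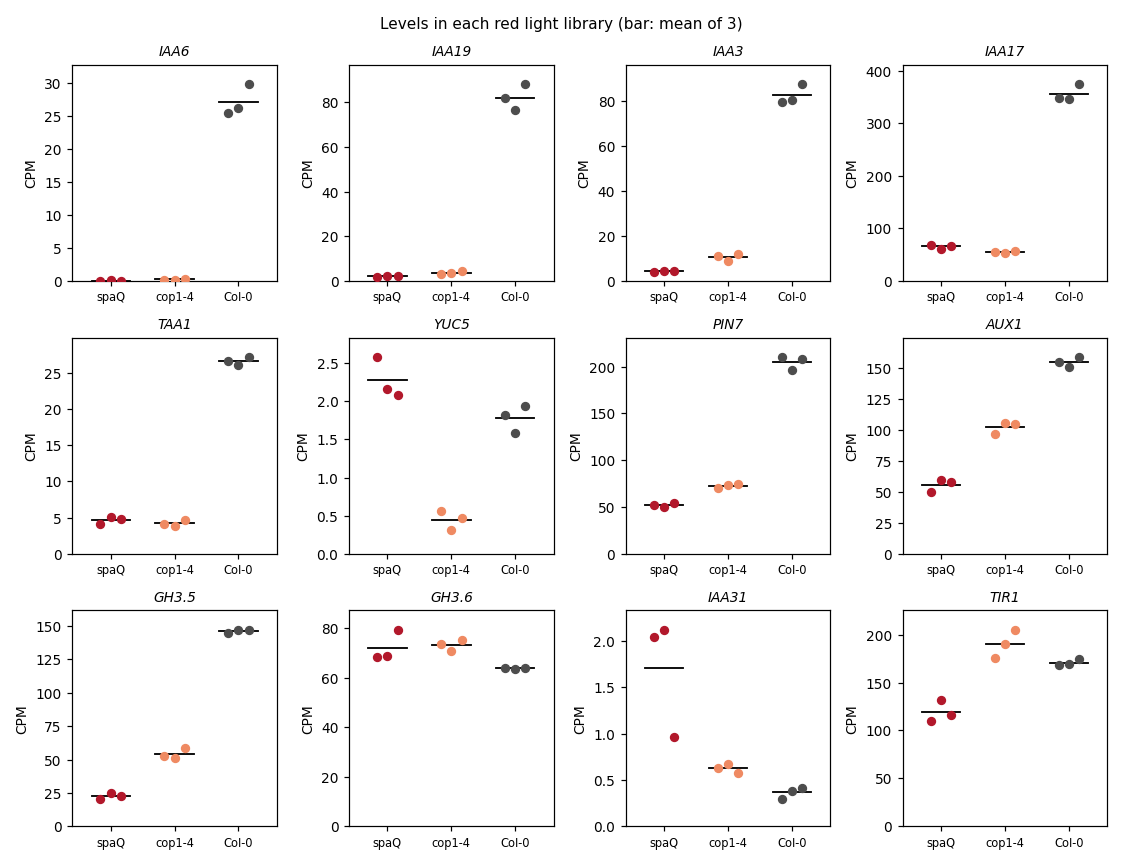
CPM, on a linear axis from 0, in each of the 3 libraries of *spaQ*, *cop1-4* and Col-0 for 12 members, 1 panel a gene, with a bar at the mean. For *IAA6*, *IAA19*, *IAA3*, *IAA17*, *TAA1*, *PIN7*, *AUX1* and *GH3.5* all mutant points lie under all Col-0 points, for *YUC5* the *cop1-4* points alone lie low, for *IAA31* the *spaQ* points lie high, and *GH3.6* and *TIR1* are shown as members under the fold limit.

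*IAA19*, *IAA20* and *IAA29* were each called in 4 of the 7 comparisons between groups made here, and *IAA3*, *IAA6* and *GH3.5* in 3 each, more than any other member. These comparisons share libraries and are not independent, and the *IAA6* call between the mutants rested on 3 counts in *spaQ* against 11 in *cop1-4*. The 250 bases before the start of these 6 genes are shown to give the letters around their start sites, read from RefSeq TAIR10.1 on the strand of the gene from 5′ to 3′. Capitals mark the G-box CACGTG and the PBE-box CACATG, which PIFs bind, and the auxin response element TGTCTC, which ARFs bind, in either orientation. The windows lie at chr3:5263751-5264000 (+ strand) for *IAA19*, chr1:19673653-19673902 (- strand) for *IAA6*, chr2:19307464-19307713 (+ strand) for *IAA20*, chr1:1129690-1129939 (- strand) for *IAA3*, chr4:15583082-15583331 (+ strand) for *IAA29* and chr4:13653329-13653578 (+ strand) for *GH3.5*.
IAA19: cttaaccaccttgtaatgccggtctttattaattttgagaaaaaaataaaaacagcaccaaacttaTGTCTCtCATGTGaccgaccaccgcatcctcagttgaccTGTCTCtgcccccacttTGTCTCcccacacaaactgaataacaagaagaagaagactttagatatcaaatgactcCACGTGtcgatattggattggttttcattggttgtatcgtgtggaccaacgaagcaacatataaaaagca
IAA6: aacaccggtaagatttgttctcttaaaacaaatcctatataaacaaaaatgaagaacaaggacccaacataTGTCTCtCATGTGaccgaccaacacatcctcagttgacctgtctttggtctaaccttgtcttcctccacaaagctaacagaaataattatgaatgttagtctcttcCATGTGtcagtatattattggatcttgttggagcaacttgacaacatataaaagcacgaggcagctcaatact
IAA20: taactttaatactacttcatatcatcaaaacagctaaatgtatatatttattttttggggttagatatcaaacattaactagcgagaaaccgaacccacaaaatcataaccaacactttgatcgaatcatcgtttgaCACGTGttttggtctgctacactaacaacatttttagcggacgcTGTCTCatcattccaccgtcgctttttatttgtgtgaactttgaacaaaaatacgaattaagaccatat
IAA3: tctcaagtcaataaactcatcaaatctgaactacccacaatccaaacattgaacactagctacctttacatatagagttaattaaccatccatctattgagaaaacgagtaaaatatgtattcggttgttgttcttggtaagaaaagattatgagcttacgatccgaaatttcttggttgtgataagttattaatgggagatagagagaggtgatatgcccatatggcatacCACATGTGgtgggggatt
IAA29: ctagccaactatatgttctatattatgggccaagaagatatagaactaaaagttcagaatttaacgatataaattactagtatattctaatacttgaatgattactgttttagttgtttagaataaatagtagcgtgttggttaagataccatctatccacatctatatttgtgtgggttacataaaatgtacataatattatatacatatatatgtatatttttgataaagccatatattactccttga
GH3.5: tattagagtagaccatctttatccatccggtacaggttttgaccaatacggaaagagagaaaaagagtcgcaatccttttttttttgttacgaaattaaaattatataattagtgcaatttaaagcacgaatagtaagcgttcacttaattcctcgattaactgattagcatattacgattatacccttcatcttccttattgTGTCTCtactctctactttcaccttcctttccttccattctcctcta

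The *IAA19* window held 3 TGTCTC elements, 1 PBE-box and 1 G-box, and the *IAA6* window held 1 TGTCTC and 2 PBE-boxes. These windows shared a stretch of 23 bases, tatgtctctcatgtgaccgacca, in which TGTCTC and a PBE-box stand side by side, and 54 of 60 aligned bases around it were identical. No other pair of the 6 windows shared more than 12 bases. The *IAA20* window held a G-box and a TGTCTC, the *IAA3* window 2 overlapping PBE-boxes on opposite strands 18 and 16 bases before the start, the *GH3.5* window a TGTCTC, and the *IAA29* window none of these letters. Over the 300 base windows that run 250 bases before to 50 bases after the start, a PBE-box was found in 15 of the 49 members (30.6%) and in 12.9% of all 27443 windows. TGTCTC was found in 13 members (26.5%, against 14.2% of all windows), the related element TGTCGG in 9 (18.4%, against 5.12%) and a G-box in 5 (10.2%, against 7.68%). These shares describe letters and not binding.

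**Figure D3:**
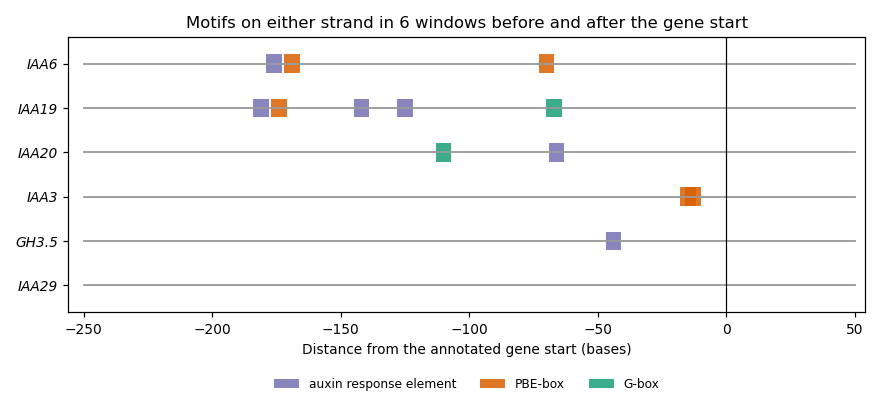
Positions of the G-box, the PBE-box and the auxin response elements in the 300 base windows of 6 members, in bases from the annotated gene start, on either strand. *IAA19* and *IAA6* hold a TGTCTC beside a PBE-box at almost the same distance from the start, and *IAA29* holds no mark.

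Most synthesis genes were lower in both mutants. In *spaQ* 4 of the 6 were called lower and in *cop1-4* 5, with family sums of 19.7 to 21.2 CPM in *spaQ*, 17.4 to 18.2 CPM in *cop1-4* and 58.7 to 62.0 CPM in Col-0. *TAA1* (AT1G70560) was at 4.05, 5.06 and 4.80 CPM in *spaQ*, 4.14, 3.81 and 4.70 CPM in *cop1-4* and 26.6, 26.1 and 27.2 CPM in Col-0, so the mutants overlapped each other and neither overlapped Col-0. Its log2 fold change was -2.52 ± 0.0939 (SE, adjusted p = 1.38e-18) in *spaQ* and -2.66 ± 0.0999 (SE, adjusted p = 2.67e-18) in *cop1-4*. *YUC8* and *YUC9*, YUCCA genes that PIFs activate in warmth or shade, were at -1.44 and -1.87 in *spaQ* and -1.47 and -1.59 in *cop1-4*, all 4 called. *YUC3* lay at the limit in both mutants (-1.03 in *spaQ*, -1.05 in *cop1-4*), and its calls were lost without *spaQ* replicate 1 (-0.91) or Col-0 replicate 1, where it fell just short of the limit, and without *cop1-4* replicate 3 (-0.98).

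*YUC5* (AT5G43890) differed between the mutants. It was at 2.58, 2.17 and 2.09 CPM in *spaQ*, 0.564, 0.313 and 0.465 CPM in *cop1-4* and 1.83, 1.59 and 1.94 CPM in Col-0. The *cop1-4* libraries were the low ones, with only 9, 6 and 8 counts, and the *spaQ* libraries lay just above Col-0. The log2 fold change was -2.01 ± 0.290 (SE, adjusted p = 8.64e-07) for *cop1-4* over Col-0, 0.35 ± 0.194 (SE, adjusted p = 0.101) for *spaQ* over Col-0, and 2.36 ± 0.281 (SE, adjusted p = 1.09e-07) for *spaQ* over *cop1-4*.

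*GH3.5* (AT4G27260), an enzyme that conjugates auxin and can also act on salicylic acid, was at 20.3, 24.7 and 22.9 CPM in *spaQ*, 52.3, 51.1 and 58.5 CPM in *cop1-4* and 144, 147 and 146 CPM in Col-0. The groups were apart, with *cop1-4* between the other two. The log2 fold change was -2.69 ± 0.0623 (SE, adjusted p = 6.7e-23) in *spaQ* and -1.43 ± 0.0573 (SE, adjusted p = 1.02e-17) in *cop1-4*. *GH3.1* was the other called member of its family (-2.51 in *spaQ*, -1.65 in *cop1-4*). *GH3.3* and *GH3.17* were lower under the fold limit in both, at -0.61 and -0.64 in *spaQ* and -0.39 and -0.79 in *cop1-4*. *GH3.6* was at 0.18 in *spaQ* and 0.20 in *cop1-4*, less than the shift of the median of all genes (-0.24 and -0.20, in that order) when libraries were scaled by their totals alone, so no direction is given for it.

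Of the carriers, 5 were called lower in *spaQ* and 4 in *cop1-4*. *PIN7* (AT1G23080), an efflux carrier of the root stele and columella, was at 52.3, 50.2 and 53.9 CPM in *spaQ*, 70.3, 73.8 and 74.1 CPM in *cop1-4* and 210.1, 197 and 208 CPM in Col-0. *LAX3* (AT1G77690), an influx carrier induced by auxin where lateral roots emerge, was at 21.4, 17.9 and 21.0 CPM in *spaQ*, 34.4, 36.9 and 35.5 CPM in *cop1-4* and 87.5, 79.0 and 85.5 CPM in Col-0. For both carriers the 3 groups were apart and *spaQ* was lowest. The log2 fold changes were -1.98 for *PIN7*, -2.06 for *LAX3*, -1.48 for *AUX1*, -1.44 for *PIN3*, a carrier of hypocotyl bending, and -1.07 for *PIN4* in *spaQ*. In *cop1-4* they were -1.49, -1.24, -0.60, -1.21 and -1.39 in the same order of genes.

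The transcription factors and receptors differed less. *ARF5* (MONOPTEROS, AT1G19850), the activator that patterns the embryo and veins, was the only one called, at 13.4, 15.7 and 15.7 CPM in *spaQ*, 24.4, 26.5 and 23.5 CPM in *cop1-4* and 30.8, 32.6 and 28.3 CPM in Col-0. Its *spaQ* log2 fold change of -1.04 lay at the limit and was under it without Col-0 replicate 2 (-0.99) or *spaQ* replicate 1 (-0.96). *ARF7*, an activator of hypocotyl bending and lateral roots, was lower under the limit (-0.63 in *spaQ*, -0.51 in *cop1-4*), as was *ARF6* (-0.30, -0.31). Exons of *ARF7* overlap those of a gene on the opposite strand that was at 1.35 in *spaQ* and 0.51 in *cop1-4*. The receptor gene *TIR1* was at -0.52 in *spaQ* and 0.16 in *cop1-4*, and *AFB2* at -0.79 and -0.51. All 4 of these receptor values passed the adjusted p and were under the fold limit, and that of *TIR1* in *cop1-4* was smaller than the shift of all genes under the other scaling, so no direction is given for it.

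The direct comparison of *spaQ* with *cop1-4* called 5 members, 3 lower and 2 higher, where 8.52% of all genes were called (5.63% lower, 2.88% higher). The median log2 fold change was -0.23 over the members and 0.00 over all genes. *IAA3* (-1.30, SE 0.116, adjusted p = 7.55e-10) and *GH3.5* (-1.26, SE 0.0668, adjusted p = 4.81e-14) were lower in *spaQ*. *YUC5*, above, and *IAA31* (1.44, SE 0.319, adjusted p = 0.000486) were higher. *IAA6* was the fifth call, on 3 counts summed in *spaQ* against 11 in *cop1-4*, a level of 22.4% with an exact counting interval of 4 to 84.6%. The *IAA6* call (adjusted p = 0.036) was lost with DESeq2 (0.0526), in 1 fit of all 21 libraries (0.0754), and without *cop1-4* replicate 3 (0.205), *spaQ* replicate 1 (0.0744) or *spaQ* replicate 3 (0.124).

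Without the fold limit 23 members were lower and 8 higher in *spaQ* than in *cop1-4*. Over all genes 10762 of 20396 passed without it, 50.5% of them higher, so passing was common here as well. Under the limit were the carriers *AUX1* (-0.88) and *LAX3* (-0.83), *IAA19* (-0.85), *ARF5* (-0.74) and *TIR1* (-0.67), all lower in *spaQ*. *IAA28* (0.56), *IAA2* (0.45) and *PIN4* (0.32) were higher. *AUX1* was at 49.7, 59.3 and 58.3 CPM in *spaQ*, 96.8, 105 and 105 CPM in *cop1-4* and 155, 151 and 159 CPM in Col-0, in 3 groups that did not overlap. Of the seed reserve genes 8 of 9 were called higher in *spaQ* than in *cop1-4*, and their part in these differences was not tested.

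A few Aux/IAA genes were lower after 1 h of red light than in darkness in the phyB-GFP lines. In *phyB-GFP ΔC* 4 members were called lower and none higher, at an adjusted p under 0.05 and a difference of more than 1.5-fold, where 2.88% of the 20459 genes tested were called (1.30% lower, 1.59% higher). In *phyB-GFP FL* 4 were called lower and 1 higher, where 5% were called (1.72% lower, 3.28% higher). The medians of the members were -0.045 in ΔC and -0.124 in FL, beside -0.01 and 0.00 over all genes. The 4 genes called in ΔC, all Aux/IAA genes, were also among the 5 called in FL, in pairs of groups that share no library. The overlap of calls over all genes was not computed, so this overlap is not read as a trait of the members. Levels in these 12 libraries were normalised apart from those of the mutants.

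*IAA29* had the largest difference of the members in both lines. It was at 6.11, 6.79 and 7.74 CPM in red and 32.1, 36.4 and 39.4 CPM in darkness in ΔC, and at 4.19, 4.62 and 6.77 CPM in red and 29.9, 38.2 and 34.9 CPM in darkness in FL. Red and dark libraries were far apart in both lines, with log2 fold changes of -2.37 ± 0.149 (SE, adjusted p = 2.31e-07) in ΔC and -2.72 ± 0.159 (SE, adjusted p = 5.46e-08) in FL. The window of *IAA29* shown above holds neither a G-box nor a PBE-box, and bases further than 250 before the start were not scanned.

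*IAA20* was at 13.5, 18.3 and 19.0 CPM in red and 35.3, 35.0 and 29.5 CPM in darkness in ΔC, and at 10.8, 11.9 and 17.9 CPM in red and 29.9, 33.9 and 25.9 CPM in darkness in FL. *IAA19* was at 139, 121 and 122 CPM in red and 204, 194 and 243 CPM in darkness in ΔC, and at 98.4, 108 and 103 CPM in red and 188, 222 and 195 CPM in darkness in FL. Red libraries lay under dark libraries in both lines for both genes, without overlap. For *IAA20* the log2 fold change was -0.97 ± 0.168 (SE, adjusted p = 0.00263) in ΔC and -1.15 ± 0.176 (SE, adjusted p = 0.000585) in FL, and for *IAA19* it was -0.75 ± 0.0951 (SE, adjusted p = 0.000193) in ΔC and -0.97 ± 0.0960 (SE, adjusted p = 1.06e-05) in FL.

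*IAA26* (PAP1, AT3G16500), an Aux/IAA gene also known as phytochrome-associated protein, was at 44.0, 54.8 and 51.6 CPM in red and 83.7, 80.2 and 74.4 CPM in darkness in ΔC, and at 40.2, 37.2 and 49.5 CPM in red and 74.1, 74.2 and 69.5 CPM in darkness in FL. Its red libraries lay below its dark libraries in each line. The log2 fold change was -0.66 ± 0.101 (SE, adjusted p = 0.000954) in ΔC, lost at the fold limit without ΔC red replicate 1 (-0.58), and -0.78 ± 0.103 (SE, adjusted p = 0.000159) in FL. *IAA28* (AT5G25890), a repressor known from lateral root founder cells, went the other way, at 29.0, 23.6 and 21.4 CPM in red and 19.5, 18.6 and 16.0 CPM in darkness in ΔC and at 32.6, 35.3 and 28.7 CPM in red and 20.5, 16.9 and 21.2 CPM in darkness in FL. Red libraries were above dark ones in both lines. The log2 fold change was 0.44 ± 0.125 (SE, adjusted p = 0.0667) in ΔC, which did not pass, and 0.72 ± 0.127 (SE, adjusted p = 0.00172) in FL, which did.

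**Figure D4:**
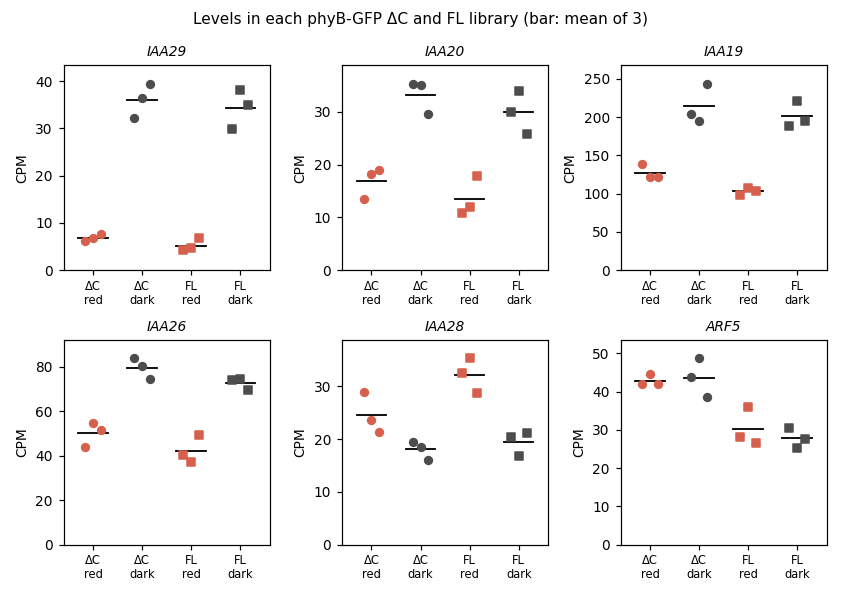
CPM, on a linear axis from 0, in each of the 3 libraries of *phyB-GFP ΔC* and *phyB-GFP FL*, red beside dark, for 6 members, 1 panel a gene, with a bar at the mean. Red points lie below dark points for *IAA29*, *IAA20*, *IAA19* and *IAA26* in both lines, and above them for *IAA28*.

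Smaller differences passed the adjusted p alone. Counting these, 6 members and 1055 of the 20459 genes passed in ΔC, and 12 members and 1824 genes in FL. *AUX1* and *IAA2* were lower in red in both lines (-0.37 and -0.40 in ΔC, -0.45 and -0.39 in FL). In FL 5 more passed, namely *IAA4* (-0.41), *TAA1* (-0.38), *LAX3* (-0.33) and *PIN4* (-0.31), all lower, and *ARF8* (0.34), higher. The YUCCA, GH3, *TIR1* and *AFB2* members were not among those that passed. Without *phyB-GFP FL* red replicate 3, the library that stood apart, all 5 FL calls stayed, with log2 fold changes of -2.96 for *IAA29*, -1.40 for *IAA20*, -0.97 for *IAA19*, -0.91 for *IAA26* and 0.80 for *IAA28*, and *IAA5* was added at 1.06 (adjusted p = 0.00231), where it was at 0.78 (adjusted p = 0.0833) with that library. The red and dark sums of the 9 seed reserve genes were 4.14 to 68.6 and 90.4 to 450 CPM in ΔC and 285 to 830 and 340 to 680 CPM in FL. Of the 7 green cotyledon genes tested, 3 were called higher in red in ΔC (median log2 fold change 0.46) and 4 in FL (0.71). The part of either list in the results was not tested.

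The test of whether the red response differed between the lines called no member. In edgeR 0 of 49 passed, with 0 at an unadjusted p under 0.05 and 0 in DESeq2, where 0.103% of all genes (21) were called. Without *phyB-GFP FL* red replicate 3 it was again 0, with 4 at an unadjusted p under 0.05, and the share of all genes at that p was not computed. The response in ΔC minus that in FL, on the log2 scale, was 0.35 (95% interval -0.13 to 0.82) for *IAA29*, 0.22 (95% interval -0.07 to 0.51) for *IAA19*, 0.18 (95% interval -0.34 to 0.70) for *IAA20*, 0.12 (95% interval -0.19 to 0.43) for *IAA26* and -0.29 (95% interval -0.67 to 0.10) for *IAA28*. Each interval spans 0, so neither an equal nor a different response was shown for these genes. Over the members the median was 0.08, beside 0.00 over all genes, and 37 values were positive. The share of positive interaction values over all genes was not computed, so this count is not read as a trait of the members.

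**Figure D5:**
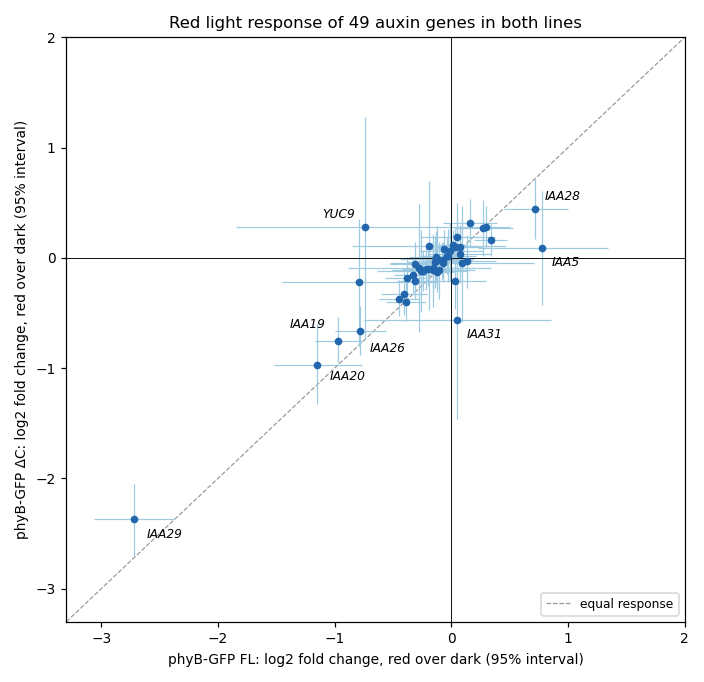
Log2 fold change of red over dark in *phyB-GFP ΔC* (vertical) against that in *phyB-GFP FL* (horizontal) for the 49 members, with bars for the 95% interval and a diagonal line of equal response. *IAA29*, *IAA20*, *IAA19* and *IAA26* lie low in both directions, close to the diagonal.

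Between the lines in darkness 1 member was called in ΔC against FL, where 1.19% of genes were called (0.587% higher, 0.601% lower). An unadjusted p under 0.05 was found for 4 members, and the share of all genes at that p was not computed. *ARF5* was at 43.8, 48.7 and 38.5 CPM in ΔC and 30.5, 25.2 and 27.6 CPM in FL in darkness, and at 42.0, 44.6 and 42.0 CPM in ΔC and 28.2, 36.0 and 26.7 CPM in FL in red. ΔC libraries were above FL libraries in both lights, without overlap. The log2 fold change was 0.65 ± 0.114 (SE, adjusted p = 0.01) in darkness, with a 95% interval of 0.41 to 0.90, and 0.50 ± 0.115 (SE, adjusted p = 0.0329) in red (0.25 to 0.75), where it was under the fold limit. The dark call was lost without *phyB-GFP FL* dark replicate 3 (adjusted p = 0.0523) or *phyB-GFP ΔC* dark replicate 2 (adjusted p = 0.0711). *ARF5* exons overlap a gene on the opposite strand, whose own log2 fold changes were 0.13 in darkness and -0.01 in red.

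Between the lines in red no member was called by edgeR at the fold limit, where 1.67% of genes were (0.596% higher, 1.08% lower). An unadjusted p under 0.05 was reached by 11 members, and DESeq2 called 0. The share of all genes at that p was not computed. Only 6 members reached it without *phyB-GFP FL* red replicate 1 or without *phyB-GFP ΔC* red replicate 2. Without *phyB-GFP FL* red replicate 2 *ARF5* was called, at 0.65 (adjusted p = 0.00565). The differences of ΔC over FL were 0.41 (95% interval 0.03 to 0.79) for *IAA29*, 0.30 (95% interval 0.10 to 0.51) for *IAA19*, 0.25 (95% interval 0.02 to 0.47) for *IAA26*, -0.39 (95% interval -0.66 to -0.13) for *IAA28* and 0.22 (95% interval 0.03 to 0.40) for *TAA1* on the log2 scale. *IAA31*, at 5 or 6 counts in each ΔC library in red, had the largest value of these 11, -1.12 (95% interval -2.02 to -0.21), in the other direction from most. These intervals exclude 0 before adjustment, but the adjusted p did not pass for any of these 6 genes. Of the 49 members 42 had a positive value, with a median of 0.11 beside -0.01 over all genes, and 6 of 9 seed reserve genes were called lower in ΔC. The share of positive values over all genes was not computed. Without *phyB-GFP FL* red replicate 3 the positive values numbered 38, with a median of 0.07. All members share these libraries, so this count is not read as a trait of the set.

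The rest of the same families held 38 more genes, of which 29 had enough reads to be tested. In *spaQ* 9 of these were called lower and 3 higher, 41.4% against 32.5% of all genes, and in *cop1-4* 7 lower and 4 higher, 37.9% against 23.8%. Among them were *IAA32* (-3.46 in *spaQ*, -2.20 in *cop1-4*), *GH3.2* (-3.18, -1.38) and the influx carrier *LAX2* (-1.90, -1.23) on the lower side. On the higher side was *TAR2*, a relative of *TAA1* (1.24 in *spaQ*, 1.12 in *cop1-4*), whose difference was opposite in sign to that of *TAA1*. *GH3.9* was also higher in both (1.51 in *spaQ*, 2.49 in *cop1-4*), and the influx carrier *LAX1* was called higher in *cop1-4* (1.28) and was under the limit in *spaQ* (0.26). *PIN5*, a carrier of the endoplasmic reticulum, was called higher in both mutants, with 73, 57 and 81 counts in *spaQ* and 19, 26 and 20 counts in *cop1-4*, against 1, 1 and 2 counts in Col-0, so low that its fitted fold change depends on the prior count and is not given. *GH3.9* and *PIN5* in both mutants and *LAX1* in *cop1-4* thus differed in sign from the called members of their families. *GH3.2* and *LAX2* shared that sign, as did the carriers *PIN6* (-1.40) and *ABCB19* (-1.53), called lower in *spaQ*. In red against darkness 1 of the 29 was called higher and 1 lower in ΔC, and 1 higher and 2 lower in FL. Among these *ARF18* was lower in both phyB-GFP lines (-0.93 in ΔC, -1.37 in FL) and *GH3.10* higher (0.89 in ΔC, 1.46 in FL). *ARF18* was also the only one of the 29 called between ΔC and FL in red, at 0.61 (adjusted p = 0.00366).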

How the data were processed

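Libraries were made from total RNA of whole seedlings with a kit for Illumina sequencing, and per the labels and the methods the authors aligned reads to TAIR10 with TopHat and Bowtie2 and counted reads per gene with HTSeq-count 0.8.0. The deposited values are raw counts per gene for 21 libraries in 7 groups of 3, and the strand setting is not given in the sources used here. The members and lists were chosen with earlier results of these data known.

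Counts were analysed in R 4.3.3 with edgeR 4.0.16 (TMM factors, filterByExpr by group, quasi-likelihood F test), with p-values adjusted by the Benjamini-Hochberg method across every gene in the fit. The 9 red-light libraries of *spaQ*, *cop1-4* and Col-0 entered 1 fit (20396 genes) and the 12 phyB-GFP libraries another (20459 genes). Calls needed an adjusted p under 0.05 and a difference over 2-fold in the first fit or 1.5-fold in the second, with no fold limit for the interaction of line and light. CPM were computed from the TMM-scaled totals of each fit. In each comparison the 5 called members with the largest fall and the 5 with the largest rise, where the average log2 CPM was 0 or more, were given in every library, and *IAA31*, *PIN7* and the others given that way were added after their values were seen. Sequences, positions and exon lengths came from RefSeq TAIR10.1, in which all 49 members were matched by locus. The values of 1 member are not reported here. The test was checked on simulated counts. Alternatives used DESeq2 1.42.0, other scalings, filters, fold limits and sample sets, a block for the replicate number, and each library left out in turn. The fold limits of the methods, 2 and 1.5 on the log2 scale, were an alternative and not the main rule.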

Additional observations from a re-analysis of the deposited data

How the results depend on the processing

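With the fold limits of the methods the number of members called was 13 for *spaQ* and 11 for *cop1-4* against Col-0, 2 for *spaQ* against *cop1-4*, 1 for red against dark in each of ΔC and FL, and 0 for ΔC against FL in darkness. Over all genes these limits called 2369, 1501 and 526 of 20396, and 114, 234 and 84 of 20459, in the same order. With no fold limit it was 44, 43 and 31 in the 3 mutant comparisons, 12 for red against dark in FL and 1 for ΔC against FL in red. Over all genes 16190, 14870 and 10762 of 20396 then passed, and 1824 and 599 of 20459, in the same order. With at least 10 counts in every library, which leaves 41 members, *spaQ* against *cop1-4* gave 2. Leaving out each library in turn gave 24 to 26 calls for *spaQ* and 20 to 22 for *cop1-4* against Col-0, 4 to 7 between the mutants, 3 to 4 for red against dark in ΔC and 5 to 6 in FL, 0 to 1 for ΔC against FL in darkness and in red, and 0 for the interaction. DESeq2, median-of-ratios factors, library totals alone, a filter of 1 count and fits of only the groups compared or of all 21 libraries kept every count within 1.5 times of that reported. Over the 61 member values tested again, 1125 of 1172 alternatives kept the direction and the side of the threshold, 47 kept the direction and lost the call, and none reversed. The tally includes alternatives that changed only the fold limit, which reused the same fit and could not reverse a value. With no fold limit no call could be lost either, since all these values were called. Why calls were lost was not tested, apart from the filter and the stricter limits, which remove genes by construction.

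Replicate numbers recur in every group. Deviations of same-numbered libraries correlated at -0.063 to 0.16 among the mutants and Col-0 (2 of 9 correlations over 0.1) and at -0.482 to 0.342 among the phyB-GFP groups (3 of 18). The labels do not say what the numbers stand for, and whether same-numbered libraries shared a batch was not tested. With the replicate block the counts were 25, 21 and 5 in the mutant comparisons, 4 in ΔC and 5 in FL for red against dark, 1 and 0 between the lines in darkness and in red, and 0 for the interaction. Depth limits *IAA5*, *IAA6*, *IAA30*, *IAA31* and *YUC9*, since 3 counts equal 0.102 to 0.191 CPM. Counts were also low for *YUC5* in *cop1-4* (9, 6 and 8), and in *spaQ* for *IAA29* (9, 11 and 6) and *GH3.1* (8, 12 and 8).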

Other observations

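Some members are neighbours in the genome. *IAA3* and *IAA17* lie head to head on chromosome 1 with 6388 bases between them, *IAA2* and *IAA7* on chromosome 3 with 12510 bases, and *IAA14* and *IAA1* on chromosome 4 with 10732 bases, and no coding gene is annotated between the members of any of these 3 pairs in RefSeq TAIR10.1. In *spaQ* against Col-0 the log2 fold changes were -4.26 and -2.44 for the first pair and -1.63 and -1.21 for the second, all called, while in the third pair *IAA1* was called at -2.96 and *IAA14* was at -0.06 and did not pass. Differences between neighbours were not tested.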
